A study of Mus musculus with 2 samples.

Results

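Microvillus core genes encode the proteins that build, tether and link the actin-filled protrusions of the intestinal brush border, and 10 of them were followed here in the duodenum of adult mice. The members were Vil1, Espn, Pls1 and Eps8 of the actin core and its tip, Ezr and Myo1a, which tie the core to the membrane, and Cdhr2, Cdhr5, Ush1c and Myo7b of the intermicrovillar adhesion complex. They were chosen by symbol, and all 10 were found among the 43346 gene rows quantified. Tissue came from the C57BL/6J strain at 8 weeks of age, pooled from male and female animals of the same litters, with no treatment or genetic change named in the labels. Polyadenylated RNA was sequenced in 2 libraries of 1 group, called replicate 1 and replicate 2 after the labels. The labels number them as biological replicates, with the same donor entry and different tissue-sample entries, and do not say whether they came from separate animals. Every p-value below compares these 2 libraries, not conditions, and measures only a spread that can be technical.

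A microvillus is a finger of membrane around a bundle of parallel actin filaments. Villin, espin and plastin 1 cross-link the bundle, and Eps8 sits at its distal tip, where it caps and bundles filaments. Ezrin and the single-headed motor myosin 1a bind the bundle sideways to the plasma membrane. At the tips, the protocadherins Cdhr2 and Cdhr5 join neighbouring microvilli by a trans-heterophilic bond, and inside the cell their tails meet the scaffold harmonin (Ush1c) and the motor myosin 7b, a set that resembles the Usher complex of hair cell stereocilia. In the small intestine these genes are known as features of the absorptive enterocyte.

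The libraries held 44977004 and 45438504 expected counts (fragments assigned to genes and spike-ins, shared out where they map to several places), and the 10 members were each covered by 1992 to 121272 of them. The libraries stood apart in their cell type markers. The 22 exocrine pancreas markers summed to 102569 TPM (a level per transcript length, scaled to a fixed total) in replicate 1 and 1673 TPM in replicate 2, where Cuzd1 alone among them was listed at 0. Most of the sum in replicate 2 came from Clps (1083 TPM) and Reg1 (402 TPM). The 12 stomach and Brunner gland markers summed to 24929 and 91.1 TPM. The 12 general epithelium markers summed to 4876 and 8354 TPM and the 20 absorptive enterocyte markers to 15580 and 31624 TPM. Summed smooth muscle markers were at 1979 and 1329 TPM and summed T lymphocyte markers at 286 and 772 TPM. Most of the T lymphocyte sum was Ccl5 (244 and 673 TPM). Of the general epithelium markers, Epcam (410 and 657 TPM) and Krt8 (1246 and 2126 TPM) were abundant in both libraries and higher in replicate 2. Others were level, such as Cdh1 (124 and 124 TPM), and Krt18 (146 and 90.25 TPM) and Esrp1 (13.8 and 7 TPM) were lower there.

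The 10 members together made up 1685 TPM in replicate 1 beside 3631 TPM in replicate 2, or 0.168% and 0.363% of all TPM. Their mean levels spanned from 21.9 TPM for Eps8 to 958 TPM for Cdhr5. In order of the mean over both libraries, Cdhr5 was followed by Cdhr2 (463 ± 151 TPM, SD, n = 2), Espn (419 ± 223), Vil1 (262 ± 186) and Myo1a (226 ± 119). Below these lay Ezr (126 ± 39.4 TPM, SD, n = 2), Myo7b (88.0 ± 28.8), Ush1c (67.0 ± 17.9), Pls1 (25.7 ± 11.5) and Eps8 (21.9 ± 1.51). Of all neighbours in this order, only Ush1c and Pls1 lay farther apart than the SD of either gene, and the other neighbours did not differ beyond this spread, which includes the shift that all members share between the libraries. The pairs Cdhr2 and Espn, Vil1 and Myo1a, and Pls1 and Eps8 changed places between the libraries, and the other 6 of the 9 neighbouring pairs kept their order within both. Cdhr5 was at the head of the order in both.

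**Figure D1:**
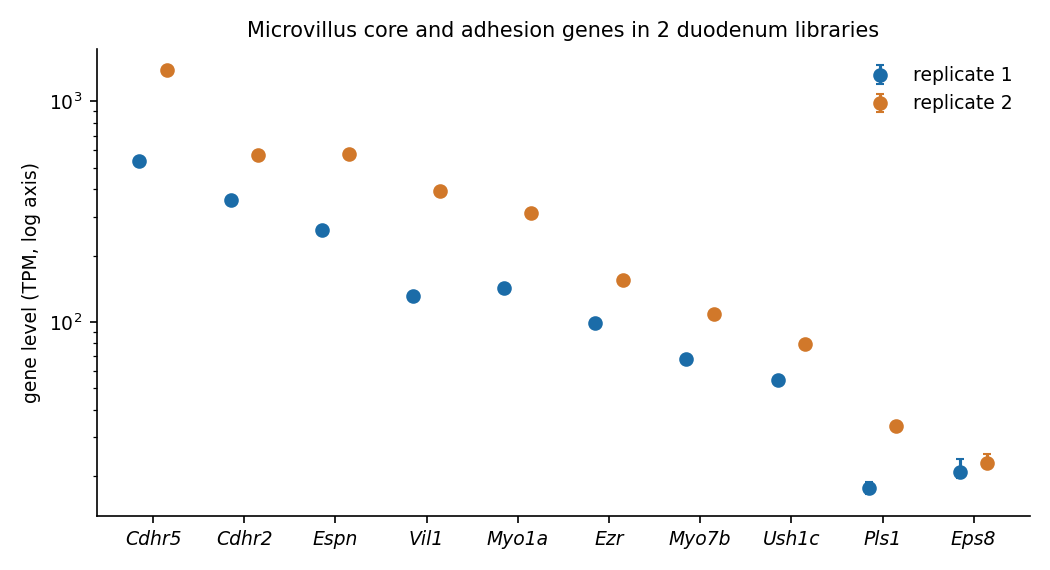
Gene levels of the 10 members in TPM (log axis) in replicate 1 (blue) and replicate 2 (orange), in order of the mean over both libraries, with bars for the deposited bounds on the TPM. The levels of Cdhr2 and Cdhr5 lie slightly above their own upper bounds in both libraries, so their upper bars have no length. Each gene lies higher in replicate 2, and the gap runs from Eps8 (20.9 and 23.0 TPM) to Vil1 (131 and 394 TPM).

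By the mean over both libraries the adhesion protocadherins were the most abundant members, though Espn lay above Cdhr2 in replicate 2, and in each library they exceeded the scaffold and motor they bind. Within a library, where scaling between libraries plays no part, Cdhr5 had 9.85 times the TPM of Ush1c in replicate 1 and 17.3 times in replicate 2. The ratio of Cdhr2 to Ush1c was 6.56 and 7.15 and that of Cdhr5 to Myo7b was 7.92 and 12.7. Between the 2 protocadherins, Cdhr2 had 0.666 and 0.412 times the TPM of Cdhr5. Among the bundlers, Vil1 had 7.44 and 11.6 times the TPM of Pls1.

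Ratios of replicate 2 to replicate 1 were computed from expected counts scaled by TMM, a trimmed mean that sets the bulk of genes to equal levels, and tested with an exact two-sided binomial test, with Benjamini-Hochberg adjustment over the 15916 genes whose counts averaged 10 or more. A gene was called where the adjusted p was under 0.05 and the ratio at least 2-fold. On this scale all 10 members lay higher in replicate 2, against 47.9% of all genes tested, and 5 of the 10 were called, Vil1, Espn, Pls1, Myo1a and Cdhr5, against 11.5% of all genes. No member was called higher in replicate 1, where 14.6% of all genes were, and 26.1% were called in either direction. The median log2 ratio was 1.07 over the members and -0.04 over all genes tested. The largest adjusted p among the members in this exact test was 5.57e-27, for Eps8, so that all 10 were past 0.05 with a ratio above 1, as were 36.5% of all genes tested. Such values cover counting error only and say nothing of variation between animals.

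These calls moved with the scale. When TPM were rescaled without the pancreas, stomach and Brunner gland markers, 2 of the 10 members (Vil1 and Cdhr5) passed the 2-fold limit and the ratio of Eps8 was 0.964. Set against the general epithelium markers, whose summed TPM was itself 1.71-fold higher in replicate 2, no member passed it. The rise in that sum leaned on a few abundant genes, with Krt8 at 1246 and 2126 TPM, Cldn3 at 945 and 1943 and Cldn7 at 285 and 1340. Of the 12 markers, 3 were called higher in replicate 2 and 2 (Krt18 and Esrp1) lay lower there. Relative to the summed epithelial markers, Vil1 was still 1.76-fold and Cdhr5 1.51-fold higher in replicate 2. Espn and Myo1a were 1.29-fold and 1.27-fold higher and Pls1 1.12-fold. The other members lay below 1 on that scale, at 0.936 for Myo7b, 0.932 for Cdhr2, 0.914 for Ezr, 0.856 for Ush1c and 0.644 for Eps8. The absorptive enterocyte list was 2.03-fold higher in replicate 2 by summed TPM, with 14 of its 20 genes called higher there and 1 lower. That sum leaned on a few abundant genes. Its rise rested on Apoa1 (2308 and 13844 TPM) and Apoa4 (2380 and 7926 TPM). The gene called lower, Alpi (7153 and 1568 TPM), was the most abundant of the list in replicate 1. Taken gene by gene on TMM-scaled counts, the list had a median log2 ratio of 1.72, above the members' 1.07. The part of any marker list in the members' ratios was not tested. In bulk tissue, fewer cells of a type and less RNA per cell cannot be told apart.

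**Figure D2:**
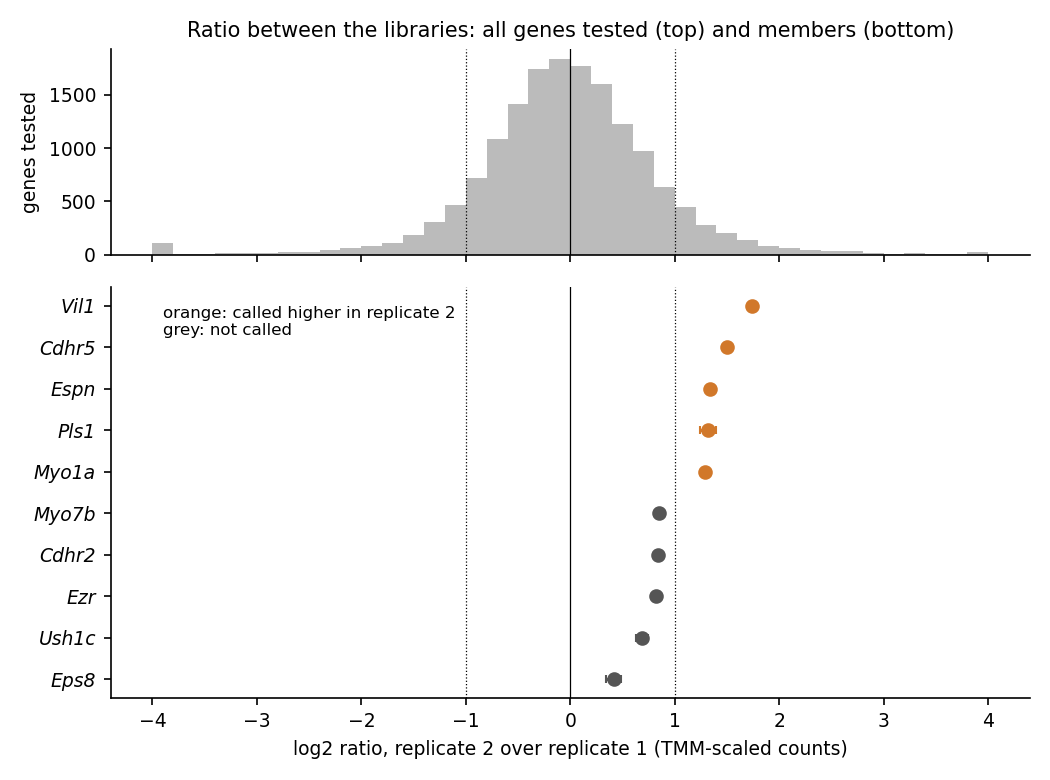
Distribution of the log2 ratio of replicate 2 to replicate 1 over the 15916 genes tested (top, with values off the axis placed in the end bars) and the same ratio for each member with its 95% interval for counting error (bottom), on TMM-scaled counts, with dotted lines at the 2-fold limit. The members lie to the right of 0, from 0.41 for Eps8 to 1.74 for Vil1, and the 5 called higher in replicate 2 are in orange.

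Villin, encoded by Vil1 (chr1:74409376-74435559, plus strand of mm10), bundles actin and severs it when calcium is high. It was at 131 and 394 TPM in replicates 1 and 2, from 14970 and 42984 expected counts. Replicate 2 was thus the high library, and the ratio of 3.35 (95% interval 3.29 to 3.41) was the largest among the members. Nearly all of this came from 1 transcript, Vil1-201, with 827 codons, which held 94.4% and 93.7% of the gene's TPM. The exons of Vil1 share 49 bases with Usp37 on the opposite strand, and no source used here says whether the counting used strand.

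The window around the start site of Vil1 is shown because this gene had the largest ratio of the set, and that of Cdhr5 because it was the most abundant member. Each runs from 250 bases before the start site to 50 bases from it on, taken from RefSeq on GRCm38.p6 (the mm10 build), and capitals mark short motifs found on either strand. Vil1 lies at chr1:74409134-74409433 (plus strand) and Cdhr5 at chr7:141276737-141277036 (minus strand).
Vil1: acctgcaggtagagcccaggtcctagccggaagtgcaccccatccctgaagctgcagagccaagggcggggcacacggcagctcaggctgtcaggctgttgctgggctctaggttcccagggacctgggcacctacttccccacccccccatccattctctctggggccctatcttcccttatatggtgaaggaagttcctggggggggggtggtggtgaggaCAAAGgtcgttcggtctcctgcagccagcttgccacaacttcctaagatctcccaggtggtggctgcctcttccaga
Cdhr5: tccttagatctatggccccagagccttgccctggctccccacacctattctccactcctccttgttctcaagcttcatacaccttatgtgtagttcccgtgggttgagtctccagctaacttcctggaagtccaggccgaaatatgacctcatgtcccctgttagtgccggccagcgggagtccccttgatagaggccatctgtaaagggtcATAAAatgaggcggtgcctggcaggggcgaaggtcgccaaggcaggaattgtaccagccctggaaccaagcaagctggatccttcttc
The capitals in Vil1 are CAAAG, the core letters of HNF4 sites, 27 bases before the start site, and those in Cdhr5 are ATAAA, the reverse complement of the CDX letters TTTAT, 38 bases before it. RefSeq windows matched 8 of the 10 members, in 10 windows because Espn has 3 start sites, and Eps8 and Myo7b had none in the table. CAAAG or its reverse was present in 5 of these 10 windows and in 53.9% of all 32851 promoter windows of this length. TTTAT or its reverse was in 2 of 10 against 40.01%, GATAA or its reverse in 0 of 10 against 25.4%, and TATAAA or its reverse, which overlaps the CDX letters, in 0 of 10 against 13.6%. Such letter matches are common and describe the windows only.

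Espin (Espn, chr4:152120331-152152371, minus strand) cross-links actin tightly without regard to calcium and lengthens the bundles it enters. Its gene level was 261 TPM in replicate 1 beside 576 TPM in replicate 2, from 12424 and 26914 expected counts, a ratio of 2.53 (95% interval 2.47 to 2.58). Much of the TPM belonged to short models, so the mean effective length was only 1171 bases against 3595 for its longest transcript. Counted per length of the longest transcript, an alternative chosen after seeing the data, Espn had 0.72 and 0.54 times the level of Vil1, where by TPM it had 1.99 and 1.46 times. Its place among the members was then the sixth in replicate 1 and the fifth in replicate 2, in place of the third and the second by TPM, so the rank of espin rests on this choice.

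Espin transcripts start at separate sites, and the choice of start decides which protein is made. Transcripts from the upstream start (Espn-201, Espn-212 and Espn-213; 871 codons in Espn-201), the long espins, summed to 38.4 TPM in replicate 1 beside 95.1 TPM in replicate 2. The small espin of the downstream start, Espn-202, with 253 codons that keep the C-terminal actin-binding part, was at 107 and 187 TPM. In both libraries the downstream form was thus the higher of the coding forms, at 41.0% and 32.5% of the gene's TPM against 14.7% and 16.5% for the upstream forms. Between these sites the 8 models of the middle start summed to 0.33 and 2.88 TPM. The remaining TPM, 115 and 291, lay in 7 other models, chiefly the retained-intron model Espn-217 of 784 bases (106 and 252 TPM). Espn-202 led in replicate 1 and Espn-217, at 43.8%, in replicate 2.

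Both windows below are given because they precede the long and the small espin, at chr4:152152340-152152639 and chr4:152128876-152129175 (minus strand, RefSeq, GRCm38.p6).
Espn upstream start: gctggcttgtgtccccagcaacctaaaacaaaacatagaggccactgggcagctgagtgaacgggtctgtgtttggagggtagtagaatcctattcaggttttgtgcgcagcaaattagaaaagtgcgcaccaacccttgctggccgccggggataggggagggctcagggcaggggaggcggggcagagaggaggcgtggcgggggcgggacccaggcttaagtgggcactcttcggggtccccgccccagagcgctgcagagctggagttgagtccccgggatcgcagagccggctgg
Espn downstream start: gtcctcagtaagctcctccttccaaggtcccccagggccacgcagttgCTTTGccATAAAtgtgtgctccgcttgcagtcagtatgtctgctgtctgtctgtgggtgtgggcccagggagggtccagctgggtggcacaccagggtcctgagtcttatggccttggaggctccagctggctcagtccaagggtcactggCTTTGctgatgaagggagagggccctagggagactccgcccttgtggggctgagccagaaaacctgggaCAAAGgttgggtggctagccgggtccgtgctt
The upstream window held none of the motifs searched. The downstream window held CAAAG or its reverse CTTTG at 3 places and ATAAA at 1, all in capitals. The fragments assigned to the upstream forms numbered 5118 and 12131 and those to the downstream form 4170 and 6892, so the order of the forms by TPM, which is per length, is the reverse of that by fragments.

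Plastin 1 (Pls1, chr9:95752642-95845311, minus strand), the intestinal fimbrin, cross-links the actin bundle. It was at 17.6 TPM in replicate 1 against 33.9 in replicate 2, from 1992 and 4262 expected counts, and the ratio was 2.50 (95% interval 2.37 to 2.63; adjusted p = 4.39e-268, exact binomial test with Benjamini-Hochberg adjustment). On the TPM scale the ratio was 1.93, below the 2-fold limit. The full-length transcript Pls1-201, of 630 codons, held 75.9% of the gene's TPM in replicate 1 and 90.0% in replicate 2. The short model Pls1-202, with its own first exon of 161 bases at chr9:95815246-95815406, made up most of the rest, at 4.16 TPM (23.7%) and 2.75 TPM (8.11%), and the deposited bounds on these TPM overlap (3.24 to 5.15 and 1.99 to 3.63).

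Eps8 (chr6:137477245-137654876, minus strand), the capping protein of the microvillus tip, was the member closest to equal between the libraries on the TMM scale, though not relative to the epithelial markers. It was at 20.9 and 23.0 TPM in replicates 1 and 2, from 2674 and 3057 expected counts, and its ratio was 1.33 (95% interval 1.27 to 1.41), below the limit for a call. Its 3 main coding transcripts share 821 codons, and of these Eps8-203 led in both libraries with 49.04% and 43.2%. A model that GENCODE M21 no longer holds was listed at 0 in replicate 1 and at 6.23 TPM (27.1%) in replicate 2, while the non-coding Eps8-211 was at 3.42 TPM (16.4%) and 0. Of its 13 deposited transcripts, 8 were listed at 0 in both libraries.

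Ezrin (Ezr, chr17:6738041-6782784, minus strand) links membrane proteins to the sides of the actin bundle once it is phosphorylated. It was at 98.5 TPM in replicate 1 against 154 in replicate 2, from 11907 and 17979 expected counts, a ratio of 1.76 (95% interval 1.72 to 1.80) that was not called. One coding transcript, Ezr-201, with 586 codons, held 99.1% and 99.6% of its TPM.

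Myosin 1a (Myo1a, chr10:127705170-127720940, plus strand), the motor of the lateral bridges between bundle and membrane, has 1 deposited transcript of 1043 codons. It was at 142 and 311 TPM in replicates 1 and 2, from 18611 and 39064 expected counts, and was called at a ratio of 2.45 (95% interval 2.41 to 2.49). Of the genes that tie the core to the membrane, the motor thus stood farther apart between the libraries than the linker, with intervals that do not overlap.

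Cdhr5 (chr7:141269083-141276786, minus strand), also called mu-protocadherin, was at 535 TPM in replicate 1 against 1381 in replicate 2, from 50064 and 121272 expected counts. By TPM it ranked 218 among all genes in replicate 1 and 100 in replicate 2, and its ratio of 2.83 (95% interval 2.80 to 2.86) was called. Its partner Cdhr2 (chr13:54701461-54736662, plus strand), with 1 deposited transcript of 1308 codons, was at 357 and 570 TPM in replicates 1 and 2, from 57520 and 88427 expected counts. The Cdhr2 ratio of 1.79 (95% interval 1.77 to 1.81) was not called. Both sides of the adhesion bond were present at 357 TPM or more in each library, and Cdhr5 differed more between the libraries.

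Cdhr5 is made in a long and a short form, which differ by 1 exon of 486 bases (162 codons) at chr7:141271517-141272002, a mucin-like stretch between the cadherin repeats and the membrane. The long transcript Cdhr5-202, with 831 codons, was at 364 TPM in replicate 1 against 811 in replicate 2, or 68.1% and 58.7% of the gene. The short transcript Cdhr5-201, with 669 codons, was at 171 and 570 TPM, or 31.9% and 41.3%. Both forms were abundant in both libraries and the long form led in both, and the deposited bounds of the forms did not overlap within a library (355 to 367 against 163 to 175 TPM in replicate 1, 796 to 812 against 555 to 574 TPM in replicate 2). The shift of 9.32 percentage points lay near the median of 9.41 over the 4065 genes with several transcripts and at least 10 TPM in both libraries.

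The exon that sets these forms apart holds repeats of 93 bases, or 31 codons. The 3 consecutive copies shown, given because the short form lacks them, cover bases 168 to 446 of the exon's 486. Copy 1 runs at chr7:141271743-141271835, copy 2 at chr7:141271650-141271742 and copy 3 at chr7:141271557-141271649, all read on the minus strand of GRCm38, and capitals mark the 45 bases that are the same in all copies.
Cdhr5 exon copy 1: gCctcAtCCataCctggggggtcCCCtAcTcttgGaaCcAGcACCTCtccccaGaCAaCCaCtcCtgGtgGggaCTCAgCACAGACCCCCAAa
Cdhr5 exon copy 2: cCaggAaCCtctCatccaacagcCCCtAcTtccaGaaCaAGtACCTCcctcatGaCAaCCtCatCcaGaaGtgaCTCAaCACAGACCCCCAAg
Cdhr5 exon copy 3: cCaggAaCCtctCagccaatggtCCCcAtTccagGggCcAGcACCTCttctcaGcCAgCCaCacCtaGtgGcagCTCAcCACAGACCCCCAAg
Copies 2 and 3 were identical at 67.7% of positions, and copy 1 matched copy 2 at 61.3% and copy 3 at 63.4%. The exon set against itself at a shift of 93 bases was identical at 51.4% of positions. This was the best of the 71 shifts tried, whose median was 31.6%. The 14 bases CCAGGAACCTCTCA occur 3 times in the exon, at the start of copy 2, of copy 3 and of the incomplete copy that follows.

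Harmonin (Ush1c, chr7:46195350-46238503, minus strand) is the PDZ scaffold that gathers the tails of the protocadherins and the motor. It was at 54.4 and 79.7 TPM in replicates 1 and 2, from 4240 and 5865 expected counts, a ratio of 1.61 (95% interval 1.55 to 1.68) that was not called. The form of 548 codons, Ush1c-202, held 78.3% and 89.1% of its TPM. The long forms Ush1c-201, Ush1c-204 and Ush1c-206, which carry an exon of 483 bases at chr7:46208850-46209332 that Ush1c-202 lacks, summed to 7.87 TPM (14.5%) and 5.70 TPM (7.16%). Ush1c-201 has 7 exons in all that Ush1c-202 lacks. The short form was thus the main harmonin in both libraries. Ush1c-204, annotated as a target of nonsense-mediated decay, was at 6.47 TPM and 0, and its split from the nearly identical Ush1c-201 (1.40 and 5.70 TPM) is uncertain. Ush1c shares 120 exon bases with the model Gm9860 on the opposite strand.

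Myosin 7b (Myo7b, chr18:31959234-32036961, minus strand) is the motor that holds the adhesion complex at the tips. It was at 67.6 TPM in replicate 1 against 108.4 in replicate 2, from 17797 and 27532 expected counts. Its ratio of 1.80 (95% interval 1.77 to 1.84) was not called, and its 1 deposited transcript has 2113 codons.

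By role, 3 of the 4 core and tip genes were called higher in replicate 2 (summed TPM of 430 and 1027), 1 of the 2 linker and motor genes (241 and 465) and 1 of the 4 adhesion genes (1014 and 2139), beside 11.5% of all genes tested. Among the 7 members with several deposited transcripts, the leading transcript differed between the libraries in 1, Espn, against 15.9% of the 4065 genes with several transcripts. A transcript share shifted by at least 10 percentage points in 3 of the 7 members (Eps8, Pls1 and Ush1c), against 47.7% of those genes.

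**Figure D3:**
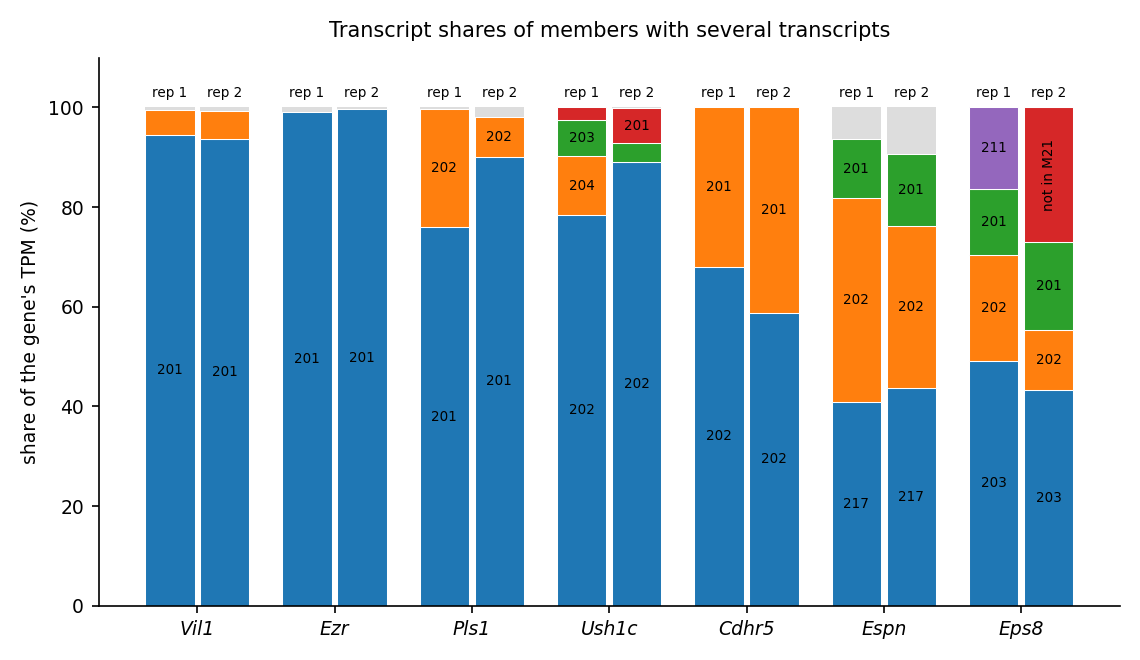
Share of each transcript in the TPM of its gene (%), for the 7 members with several deposited transcripts, as stacked bars for replicate 1 and replicate 2; numbers name the GENCODE transcript (201 is, for example, Vil1-201), colours only separate the transcripts of 1 gene, and grey sums those under a small share. Ezr and Vil1 were nearly a single transcript, Cdhr5 held 2 forms, and Espn and Eps8 were split over several.

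Family relatives of the members set their levels in context. Relatives beyond the naming rule are given because they belong to these families, and they were chosen with their values known. Ezr was the leading ERM protein, at 7.92 and 24.7 times the TPM of Msn (12.4 and 6.24 TPM) and 131 and 309 times that of Rdx (0.75 and 0.50 TPM). Pls1 was the leading plastin, at 9.06 and 20.03 times Lcp1 and 30.8 and 99.6 times Pls3. Myo7b lay above its hair cell relative Myo7a (34.9 and 30.3 TPM) by 1.94 and 3.58 times, and Myo1a above Myo1d (89.95 and 107 TPM) by 1.58 and 2.90 times. Other class I myosins were lower, with Myo1c at 23.3 and 14.9 TPM and Myo1e at 5.99 and 10.1 TPM.

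Eps8 was not the main gene of its family here. Eps8l2 was at 241 and 363 TPM in replicates 1 and 2, 11.6 and 15.8 times Eps8. Eps8l3 was at 116 and 250 TPM, 5.55 and 10.9 times Eps8, and was called higher in replicate 2 at a ratio of 2.41 (95% interval 2.35 to 2.47), a call that was lost at 1.89 on the TPM rescaled without the pancreas, stomach and Brunner gland markers. Both relatives thus exceeded the founding member in each library, while Eps8l1 was at 2.60 and 0.11 TPM. The deposited bounds on these Eps8l1 levels overlap (2.93 to 5.63 and 0.55 to 3.40 TPM) and hold neither level. In the gelsolin family the order was not the same in both libraries. Gsn, which severs and caps filaments, was at 196 and 120 TPM, so that Vil1 had 0.667 times its level in replicate 1 and 3.28 times in replicate 2. Smooth muscle also expresses Gsn, and the summed smooth muscle markers were higher in replicate 1 too (1979 and 1329 TPM), whose part in this change of order was not tested.

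**Figure D4:**
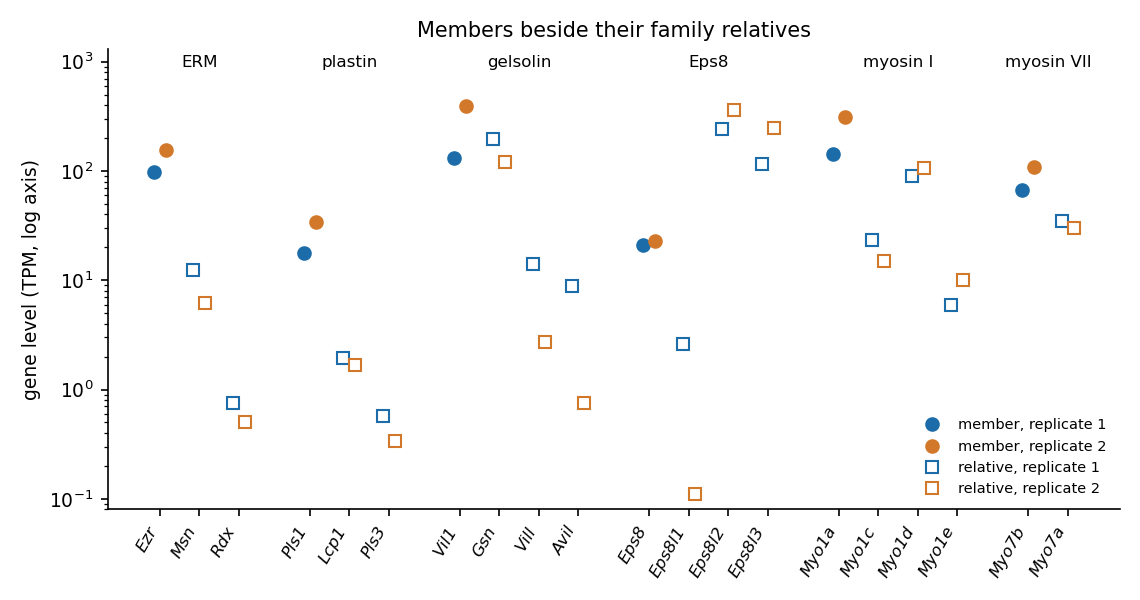
Levels in TPM (log axis) of members (filled circles) and of their family relatives (open squares) in replicate 1 (blue) and replicate 2 (orange). Ezr, Pls1, Myo1a and Myo7b lie above the relatives shown in both libraries, Eps8 lies below Eps8l2 and Eps8l3, and Vil1 and Gsn change order.

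Of 38 other genes of the brush border, its scaffolds and the stereocilia counterparts of its parts, 35 were tested, 7 were called higher in replicate 2, 4 higher in replicate 1 and 24 were not called, beside 11.5% and 14.6% of all genes tested that were called in these directions. Their median log2 ratio was 0.11, beside -0.04 for all genes tested. Espnl, Pcdh15 and Cdhr1 had too few counts to be tested. One group held the ERM proteins Msn and Rdx with scaffolds and kinases of the family. In it 3 of 8 were called, each higher in replicate 2, where 11.5% of all genes were. Another 4 of the 8, namely Msn, Rdx and the kinases listed other than Stk10, had ratios below 1 and were not called. The median log2 ratio of the 8 was -0.07. Slc9a3r1, the NHERF1 scaffold that binds active ezrin, was at 230 and 781 TPM (ratio 3.78, 95% interval 3.71 to 3.85). The PDZ scaffold Pdzk1 was at 7.76 and 35.0 TPM (ratio 5.04) and the ezrin kinase Stk10 at 5.49 and 27.1 TPM (ratio 5.69). Slc9a3r2, the second NHERF, was at 46.0 and 46.6 TPM and was not called. Slc9a3r1 thus had 2.34 times the TPM of Ezr in replicate 1 and 5.06 times in replicate 2.

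Among genes that act on actin assembly and membrane shape, Cobl, a nucleator of actin filaments, was called higher in replicate 2 at 8.33 and 19.6 TPM. Baiap2l2, a membrane-bending protein of the BAR family, was at 347 and 535 TPM and was not called (ratio 1.74). The bundler Fscn1, at 8.83 and 12.7 TPM, was not called. The vesicle motor Myo5b, at 29.96 and 60.1 TPM, was not called on counts (ratio 1.57), but its ratio of TPM passed the 2-fold limit (2.01). Genes called higher in replicate 1 were the villin relatives Vill (14.0 and 2.73 TPM) and Avil (8.78 and 0.75 TPM), Eps8l1 and the Usher scaffold Pdzd7 (0.97 and 0.22 TPM). The villin relatives lay higher in replicate 1, the library with the higher pancreas, stomach and Brunner gland markers, whose part in these ratios was not tested.

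Partners of the adhesion complex were detected in both libraries, and the levels of its stereocilia counterparts differed widely. Calml4, the light chain of Myo7b, was at 48.7 and 64.1 TPM and Anks4b, the adaptor between harmonin and the motor, at 8.81 and 12.7 TPM, and neither was called. Ush1c had 1.12 and 1.24 times the TPM of Calml4 and 6.17 and 6.27 times that of Anks4b, ratios that were close in both libraries. The stereocilia cadherins were near 0, with Cdh23 at 0.16 and 0.78 TPM (called higher in replicate 2 at a ratio of 2.33 from 23 and 46 counts, but not at 1.97 with ERCC and 1.98 with total sizes) and Pcdh15 at 0.06 TPM and 0. Whrn, the whirlin scaffold, was at 28.9 and 14.5 TPM and was not called (ratio 0.518), but was called higher in replicate 1 with ERCC sizes (0.438), total sizes (0.439) and the rescaled TPM (0.439). Of the other brush border proteins, Clic5 was at 6.22 and 9.43 TPM and not called, and Tmigd1 was called higher in replicate 2 from 4 and 24 counts.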

How the data were processed

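RNA-seq of 1 group of 2 duodenum libraries was used. Per the text files beside the tables, alignments to mm10 were quantified on GENCODE M4, and no source used here names the aligner or quantifier. The deposited expected counts are estimated counts of fragments, not normalised, per the file headers. The authors scaled the deposited TPM per transcript length to a fixed total, spike-ins included. The deposited FPKM were scaled by the authors to length and fragments. Bounds on the TPM, a signal range that the authors deposited with each level, have no stated confidence level and entered no test. The deposited isoform percent is a transcript's share in the TPM of its gene. Lists of junctions and contigs in mm9 coordinates were not used here.

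Symbols, positions and exons came from GENCODE M21 (mm10), with a symbol for 42462 of 43346 gene rows, and promoters from RefSeq (GRCm38.p6). ERCC spike-ins (1.35% and 1.36% of counts) and rows that name no gene were left out of sizes and tests. With 1 group, 1 library cannot be tested against the other with replication, so rounded expected counts were compared by an exact two-sided binomial test given TMM sizes (edgeR 4.0.16), with a prior of 0.5 CPM in log2 ratios and exact (Clopper-Pearson) 95% intervals, in Python 3.11.15 with scipy 1.17.1. Intervals cover counting error only. A gene at 0 counts allowed up to 3 counts, 0.0678 and 0.0671 CPM. On counts simulated with Poisson counting error only over 15916 genes, 196 of 200 genes changed 4-fold were recovered and 1 unchanged gene was called. The simulation held no variation between animals or tissue pieces, so it gives no error rate for the real libraries. Alternatives were DESeq2 1.42.0 size factors, ERCC and total sizes, no filter, posterior means, TPM and FPKM scales, other limits and pseudocounts, and each library alone. Calls on the TPM scales set the fold limit on ratios of TPM and kept the adjusted p of the count test. No test was run on TPM itself. All members are named. Of the other brush border genes, the 2 of highest mean TPM in each of 6 role groups and those called are named. Marker lists are given by sums and counts, and the single markers named were picked with their values known. Members, lists and motifs were chosen with earlier results of these data known. One further gene, outside the 38 other brush border genes counted, is not reported here.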

Additional observations from a re-analysis of the deposited data

How the results depend on the processing

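The count of 5 members called higher in replicate 2 was within 1.5 times of that value under DESeq2, ERCC and total sizes, no filter, posterior mean counts and the TPM scale. It was 9 with a 1.5-fold limit, 2 with TPM rescaled without the pancreas, stomach and Brunner gland lists, and 0 with TPM relative to the general epithelium list, a scale added after seeing the data. The members' median log2 ratio of 1.07 was 1.11 with DESeq2 size factors, 0.83 with ERCC, 0.83 with total gene counts, 0.79 on the TPM scale, 0.60 on the rescaled TPM and 0.034 relative to the epithelium list. The median over all genes moved with it, to -0.01, -0.24, -0.24, -0.12, -0.24 and -0.63 in the same order, so the members lay above that median by 1.11, 1.07, 1.07, 0.91, 0.85 and 0.67.

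For the other brush border genes, 14 were called higher in replicate 2 and 10 in replicate 1 with the 1.5-fold limit, and 8 in replicate 1 on the rescaled TPM, against 7 and 4. Their median log2 ratio changed sign, to -0.055 with ERCC, -0.049 with total counts and -0.17 on the rescaled TPM, and was 0 on the TPM scale. Directions of single genes changed as follows on the log2 scale. On the rescaled TPM, Eps8 was at -0.051, Slc9a3r2 at -0.17 and Lcp1 at -0.26. Relative to the epithelium list, Eps8 was at -0.61, Ezr at -0.13, Cdhr2 at -0.10, Ush1c at -0.22 and Myo7b at -0.095. With ERCC and total sizes, Slc9a3r2 was at -0.055 and -0.049 and Lcp1 at -0.15 and -0.15, and on the TPM scale Lcp1 was at -0.13. The cause was not tested.

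Summed member TPM, 2658 as the mean, ranged from 1685 to 3631 with each library left out in turn. The ratios and calls need both libraries, so no library could be left out of them. No paired analysis was possible because the study has 1 group only. Depth did not limit the members, each with 1992 counts or more, but the stereocilia cadherins rest on 46 counts or fewer.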
